A study of Mus musculus with 16 samples.

Results

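The response of the liver transcriptome to a fast was followed in mice on the control diet (CD). Livers taken from mice fed ad libitum (CD fed, n = 4) were compared with livers from mice fasted for 16 h (CD fast, n = 4). Each sample gave 1 RNA-seq library. These 8 libraries are all the CD livers among the 16 libraries of the series. The other 8 come from mice on a high-fat diet (HFD) in the same feeding states. All mice were males of the strain written C56B6/J in the labels and C57BL6/J in the methods. The animals had been on their diet for 16 weeks, and no allele, transgene or drug distinguished the groups. Feeding state was the only labelled difference between CD fed and CD fast. The labels number the samples without naming the animal. The p-values therefore measure the spread between these samples, at a single duration of fasting. Every RNA was polyA-enriched from bulk liver, with all cell types of the tissue in it. The summed level of 10 defining hepatocyte genes, none of them absent, was 123000 to 153000 CPM in CD fed and 109000 to 133000 CPM in CD fast livers. CPM are read counts scaled to the effective size of each library.

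Total counts were 55415835 to 57583153 in the CD fed and 41364448 to 53982285 in the CD fast libraries, without overlap. The part of this difference in depth was not tested. A detection floor of 3 counts was 0.0536 to 0.0767 CPM. No replicate pair agreed within sampling noise. The median gene of a library deviated from the other libraries of its group by 0.13 to 0.22 on the log2 scale, most in CD fast replicate 2. Genes over 1 log2 unit from the others were most numerous in CD fed replicate 1 (664, and 607 in CD fast replicate 2). CD fast livers varied more among themselves than CD fed livers, with a median SD of log2 CPM of 0.21 against 0.17 and a larger SD for 61.7% of genes.

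A liver that no longer receives nutrients shifts from storing energy to exporting it. Falling insulin lowers the activity of SREBP1c (gene Srebf1) and ChREBP (gene Mlxipl), the factors that switch on fatty acid synthesis and sugar use. Fatty acids released from fat tissue activate in turn the nuclear receptor PPARα (gene Ppara), which switches on fatty acid oxidation and ketone body synthesis. Glucagon and glucocorticoids act through CREB, FOXO1 and the glucocorticoid receptor on glucose production from amino acids, lactate and glycerol. SREBP2 (gene Srebf2) governs cholesterol synthesis. The factors of the unfolded protein response adjust the capacity of the endoplasmic reticulum (ER), where plasma proteins are made.

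Of 15075 genes tested, 3797 (25.2%) differed between CD fast and CD fed livers at an adjusted p under 0.05 in edgeR. An unadjusted p under 0.05 was found for 5674. Levels were higher after the fast for 2066 genes (13.7%) and lower for 1731 (11.5%). Genes that pass this threshold are called higher or lower, and these shares are the background against which each gene list is read. Where levels are given in pairs, those of CD fed come first, and the 4 libraries of a group follow in the order of their numbers. Most calls were of small size. The median log2 fold change, here always CD fast minus CD fed, was 0.54 among genes called higher and -0.60 among genes called lower. Of the called genes, 1958 moved by less than 0.58 in size. A log2 fold change of at least 1 in size was reached by 450 higher and 428 lower genes. A size of at least 2 was reached by 100 and 115, and of at least 3 by 42 and 32. The median of all tested genes was -0.01. With total counts as library sizes, and no TMM factor, the split became 1628 higher and 2045 lower. Which direction has more calls therefore depends on the scaling.

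**Figure D1:**
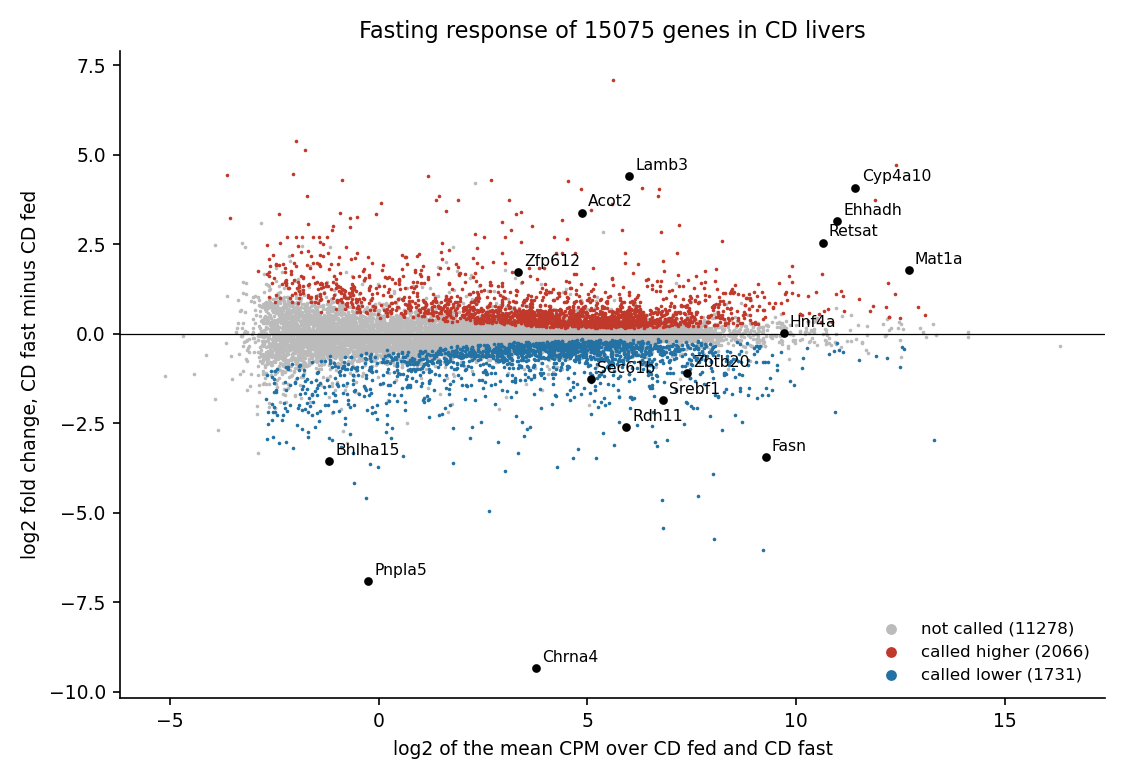
Log2 fold change (CD fast minus CD fed, y axis) against the log2 of the mean level in CPM (x axis) for each of the 15075 tested genes, with 2066 called higher in red, 1731 called lower in blue and the rest in grey. Called genes occur at all levels, and most of them lie within 1 log2 unit of 0.

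Called genes were also followed as a share of all RNA. Genes called higher held 14.5, 15.5, 15.4 and 15.5% of all counts in the 4 CD fed libraries and 26.5, 30.2, 24.7 and 26.3% in the 4 CD fast libraries. Genes called lower went the other way, from 17.9, 18.5, 17.7 and 17.1% to 9.90, 8.18, 10.4 and 9.39%. The genes without a call took up 67.0% ± 0.668 of all counts before and 63.5% ± 1.47 after the fast (SD, n = 4 each). These shares describe genes chosen on the same libraries and carry no test. The rise of 11.7 percentage points in the first class was 9.74 points without CD fast replicate 2. The share of genes called rose with the level of expression, from 11% in the lowest decile of genes by mean CPM to 38.4% in the highest. In the highest decile 22% were called higher and 16.4% lower. The 4 CD fed and 4 CD fast libraries did not overlap for 3832 genes (25.4%), among them 1664 of the genes called higher and 1450 of those called lower.

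Genes for burning fat rose together. Of 36 tested target genes of PPARα, 31 were called higher, 0 lower, and their median log2 fold change was 1.18 against -0.01 for all genes. The members of this list and of those below were chosen with earlier results of these data known. The lists can share members, so their counts are not separate evidence. Mitochondrial fatty acid oxidation had 19 of 23 members higher and 0 lower (median 0.95). Peroxisomal oxidation and biogenesis had 14 of 21 higher and 1 lower (0.61). The falling member, Pex11g, lost its call without CD fast replicate 4, CD fed replicate 2 or CD fed replicate 3. The lower count was 2 without CD fast replicate 3 or CD fed replicate 1. Ketone bodies are made from the acetyl-CoA that this oxidation yields. Their synthesis and export had 6 of 7 higher and 0 lower (0.69). Cyp4a10, which hydroxylates the far end of fatty acids in the ER and is a standard PPARα target, was at 207, 351, 358 and 302 CPM in the CD fed libraries and at 4690, 6840, 4710 and 4490 CPM in the CD fast libraries. Every fasted liver was far above every fed liver (log2 fold change 4.09, SE 0.33, adjusted p = 2.12e-06). Its family has closely similar copies, among which reads can be shared. Ehhadh, the bifunctional enzyme of the peroxisomal pathway, stood at 434, 457, 411 and 334 CPM and at 4640, 4010, 2570 and 3310 CPM, again without overlap (log2 fold change 3.15, SE 0.32, adjusted p = 1.62e-05). In mitochondria, the trifunctional protein subunit Hadhb rose from 224 ± 18.6 to 500 ± 20.3 CPM (mean ± SD, n = 4 each, here and below; log2 fold change 1.16, SE 0.10, adjusted p = 4.21e-06), with nearly the same level in each fasted liver. Slc25a20, the carrier that brings acylcarnitines across the inner membrane, rose by 0.98 on the log2 scale (adjusted p = 3.09e-05). Cpt1a, which makes acylcarnitines and sets the rate of entry, rose by 1.45 (adjusted p = 4.5e-05).

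Acyl-CoA thioesterases release fatty acids from their activated form. Acot2, which frees fatty acids from coenzyme A in mitochondria, was at 5.18, 5.88, 5.2 and 4.09 CPM and at 58.9, 54, 52 and 48.8 CPM (log2 fold change 3.39, SE 0.35, adjusted p = 1.62e-05). The groups were far apart. Of 12 acyl-CoA thioesterases tested, 7 were called higher and 0 lower (median 1.0).

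Some regulators and targets known from other fasts did not pass the threshold. Pdk4, the kinase that shuts pyruvate dehydrogenase, was at 21, 12.1, 7.02 and 7.61 CPM in CD fed and 11.7, 16.7, 27 and 13.4 CPM in CD fast livers, which overlapped (log2 fold change 0.53, SE 0.42, adjusted p = 0.383). Fgf21, a hormone that the fasted liver secretes, was at 12.7, 2.41, 5.64 and 2.16 CPM and 19.7, 15.9, 14.8 and 11.3 CPM. Of the fed livers 1 lay within the range of the fasted ones, and the difference did not pass (log2 fold change 1.43, SE 0.59, adjusted p = 0.0863). It passed in 3 of 25 other fits. Without CD fed replicate 1 the log2 fold change was 2.18 and the adjusted p 0.0173 in edgeR, and without HFD fast replicate 2 the adjusted p was 0.0426. With the replicate number as a block in edgeR, the log2 fold change was 1.69 and the adjusted p 0.0369. A p above the threshold does not show that these genes were unaltered. Ppara itself was at 210, 185, 194 and 222 CPM in CD fed and 226, 253, 282 and 283 CPM in CD fast livers. All 4 fasted values lay above the fed ones, but the difference of 0.37 missed the threshold (adjusted p = 0.068). It passed in 5 of 25 other fits, among them DESeq2 (adjusted p = 0.0443) and the fit of CD libraries alone (0.0323).

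Fat handling in the hepatocyte changed at several steps. Of 17 genes of lipid droplets and lipolysis, 13 were called higher and 1 lower (median 1.14), although only 8 were called higher without CD fed replicate 2. Plin2, the main coat protein of droplets in liver, rose from 599 ± 92.8 to 1320 ± 195 CPM (log2 fold change 1.14, SE 0.21, adjusted p = 0.00123), and the droplet-bound dehydrogenase Hsd17b11 from 140 ± 11.3 to 391 ± 27.5 CPM (log2 fold change 1.48, SE 0.11, adjusted p = 1.22e-06). Pnpla2, the lipase that starts triglyceride breakdown, was at 69.7, 82.6, 66 and 82 CPM and at 111, 278, 152 and 143 CPM, with a wide spread among the fasted livers (log2 fold change 1.19, SE 0.23, adjusted p = 0.00198). Its activator Abhd5 fell by 0.38 on the log2 scale (adjusted p = 0.00905). Among genes of fatty acid uptake and activation 6 of 17 were higher and 3 lower. The transporter and very-long-chain acyl-CoA synthetase Slc27a2 rose from 1430 ± 71.8 to 3000 ± 138 CPM (log2 fold change 1.07, SE 0.10, adjusted p = 6.92e-06). The synthetase Acsl5 fell by 0.56 on the log2 scale (adjusted p = 0.00162). Triglyceride synthesis was split, with 5 of 12 members higher and 1 lower, or 2 lower without CD fed replicate 4. Gpat3, which starts the pathway in the ER, rose from 2.81 ± 0.705 to 22.7 ± 8.9 CPM (log2 fold change 3.01, SE 0.33, adjusted p = 2.52e-05). Lpin1, a phosphatidate phosphatase that also acts as a co-activator of transcription, was the member that fell (log2 fold change -2.28, SE 0.49, adjusted p = 0.00365).

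**Figure D2:**
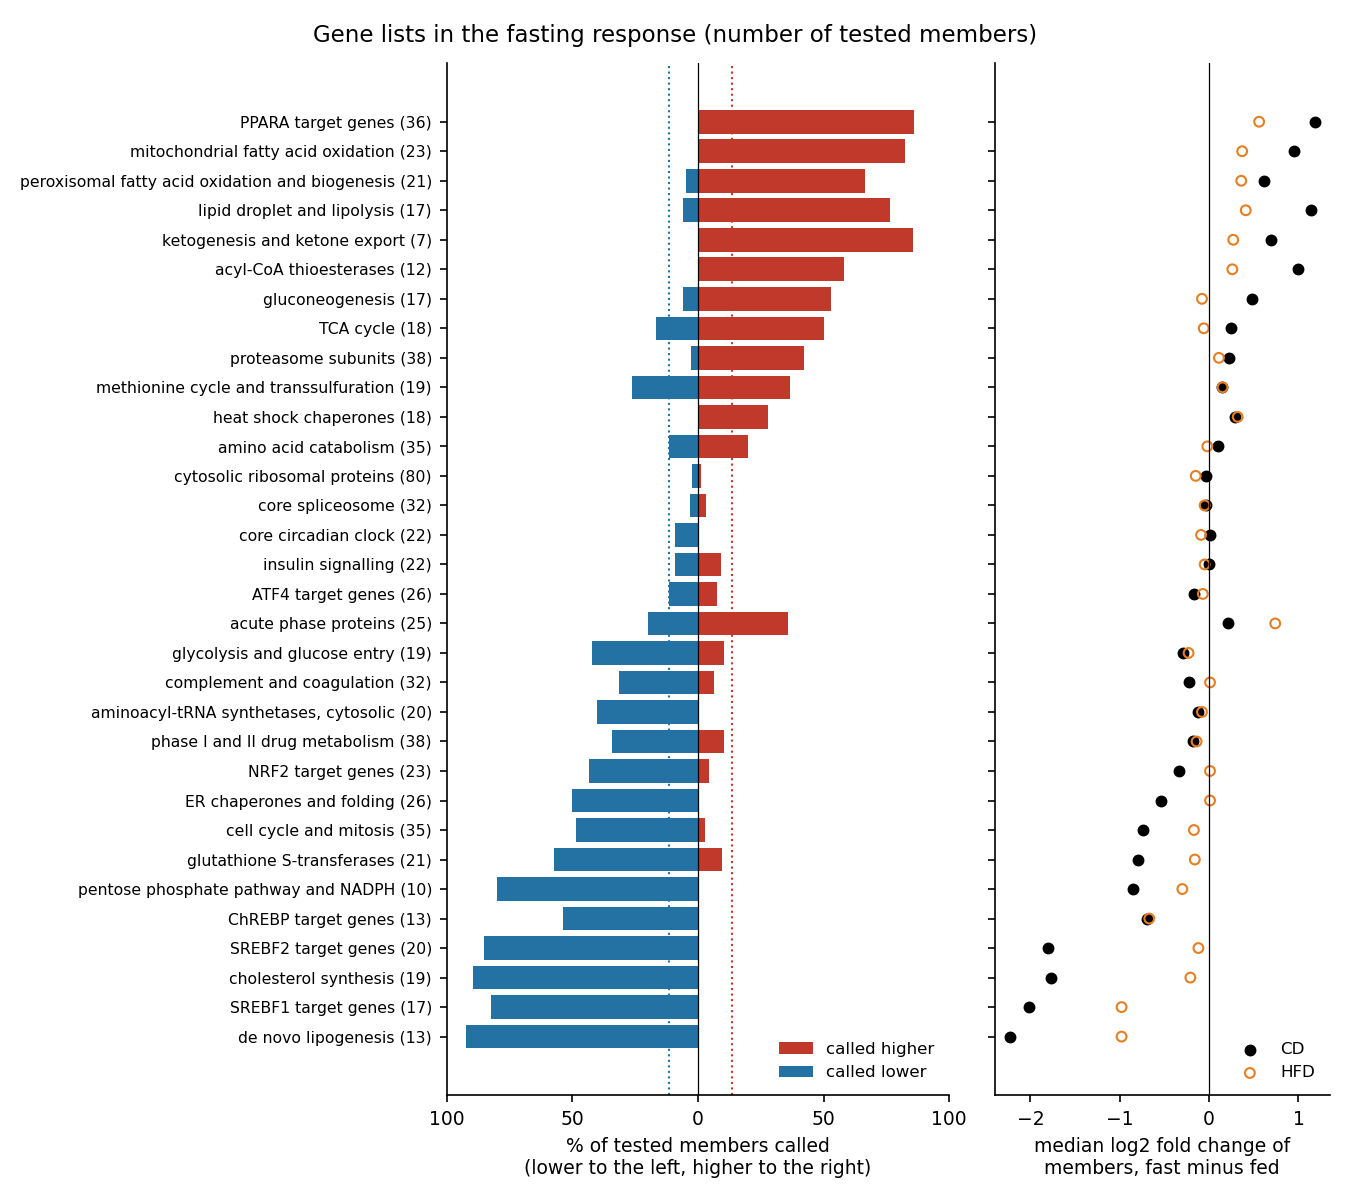
Left, share of the tested members of 32 gene lists called lower (blue, to the left) or higher (red, to the right) after the fast, in % of members, with dotted lines at the share of all genes (11.5% lower, 13.7% higher). Right, the median log2 fold change of the members in CD livers (black) and in HFD livers (orange rings): PPARα targets lie at 1.18 in CD and 0.56 in HFD, and lipogenesis at -2.23 and -0.98.

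Genes that build fatty acids fell to the lowest median of any list counted here. Of 13 tested genes of de novo lipogenesis 12 were called lower and 0 higher, with a median log2 fold change of -2.23. The same 12 of 13 was found in every fit that left out 1 CD library. Fasn, the fatty acid synthase, was at 874, 1530, 1240 and 874 CPM in CD fed and at 111, 86.1, 120 and 98.6 CPM in CD fast livers. The fed livers differed widely among themselves and the fasted livers little, and the groups did not overlap (log2 fold change -3.44, SE 0.20, adjusted p = 1.2e-07). Acly, which cleaves citrate to give the acetyl-CoA for this synthesis, fell from 704 ± 219 to 127 ± 32.8 CPM (log2 fold change -2.47, SE 0.20, adjusted p = 2.12e-06). Elovl6, which lengthens its product, fell from 263 ± 110 to 68.5 ± 3.04 CPM (log2 fold change -1.94, SE 0.25, adjusted p = 9.83e-05). Srebf1 was at 165, 186, 178 and 171 CPM in CD fed and 39.2, 33.3, 74.6 and 47.4 CPM in CD fast livers, again without overlap (log2 fold change -1.85, SE 0.21, adjusted p = 2.79e-05). Of its 17 target genes 14 were lower and 0 higher (median -2.02), a list that shares 12 members with lipogenesis.

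Reducing power for the synthesis comes from the oxidative branch of the pentose phosphate pathway and related enzymes. In CD livers 8 of 10 such genes were called lower, 0 higher (median -0.85), with 1 higher without CD fast replicate 3 or 4. Pgd, the second dehydrogenase of that branch, was at 46.1, 59.9, 56.2 and 50.1 CPM and at 23.4, 23.2, 22.3 and 20.7 CPM (log2 fold change -1.24, SE 0.10, adjusted p = 1.88e-06). Mlxipl fell from 477 ± 50 to 240 ± 35.2 CPM (log2 fold change -0.99, SE 0.14, adjusted p = 0.000176), and 7 of 13 tested target genes of ChREBP were lower, 0 higher (median -0.70; 1 higher without CD fast replicate 1). Pklr, the pyruvate kinase of liver and a defining ChREBP target, was at 211, 714, 648 and 483 CPM in CD fed and 73, 72.6, 97.8 and 75.9 CPM in CD fast livers (log2 fold change -2.69, SE 0.29, adjusted p = 2.33e-05). In the fed group 1 liver was well below the other three. The Pklr promoter is shown because the carbohydrate response element, a pair of E-boxes at fixed spacing, was found in it. The element was searched as the letters CANGNGNNNNNCNCNTG (N is any base, either strand) and is in capitals. The RefSeq promoter runs from 250 bases before to 50 after the start (chr3:89136373-89136672, plus strand, GRCm38.p6), 5′ to 3′ in the direction of the gene.
Pklr: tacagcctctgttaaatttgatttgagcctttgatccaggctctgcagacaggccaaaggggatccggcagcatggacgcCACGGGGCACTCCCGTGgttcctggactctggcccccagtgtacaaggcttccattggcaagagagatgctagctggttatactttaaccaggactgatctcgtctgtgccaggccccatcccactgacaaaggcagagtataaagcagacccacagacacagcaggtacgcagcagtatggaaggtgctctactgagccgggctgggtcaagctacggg

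Cholesterol synthesis fell as well. Of its 19 tested genes 17 were called lower and 0 higher (median -1.77). Of 20 target genes of SREBP2 17 were lower and 0 higher (median -1.80). Both lists share 15 members. Sc5d, an enzyme of the late pathway, was at 633, 603, 506 and 405 CPM in CD fed and at 176, 131, 189 and 179 CPM in CD fast livers, without overlap (log2 fold change -1.67, SE 0.16, adjusted p = 1.09e-05). Hmgcs1, which makes the cytosolic HMG-CoA from which the pathway starts, fell from 258 ± 66.4 to 69 ± 17.6 CPM (log2 fold change -1.90, SE 0.39, adjusted p = 0.00277). Insig1, which holds SREBP proteins in the ER and is itself their target, fell from 317 ± 67.5 to 75.1 ± 22.5 CPM (log2 fold change -2.08, SE 0.23, adjusted p = 2.69e-05). The transcript of Srebf2 itself was at 50, 57.9, 49.5 and 55.1 CPM and 37.1, 50.6, 48.1 and 47.5 CPM, with overlapping groups and no call (log2 fold change -0.21, SE 0.17, adjusted p = 0.382). Cholesterol uptake and SREBP control as a whole were mixed, with 5 of 16 members lower and 2 higher. The higher count was 1 without CD fast replicate 2, 3 or 4 or CD fed replicate 1, 2 or 3. Among the 2 was Lcat, the plasma enzyme that esterifies cholesterol (log2 fold change 0.40, SE 0.08, adjusted p = 0.00313). Rdh11, a retinol dehydrogenase outside these lists, fell from 105 ± 15.9 to 17.3 ± 3.81 CPM (log2 fold change -2.60, SE 0.22, adjusted p = 4.11e-06). The promoter of Hmgcs1 (chr13:119690101-119690400, plus strand, GRCm38.p6) is printed because it was the one among the 12 promoters of SREBP2 targets in the RefSeq table that holds the sterol regulatory element TCACNCCAC, in capitals.
Hmgcs1: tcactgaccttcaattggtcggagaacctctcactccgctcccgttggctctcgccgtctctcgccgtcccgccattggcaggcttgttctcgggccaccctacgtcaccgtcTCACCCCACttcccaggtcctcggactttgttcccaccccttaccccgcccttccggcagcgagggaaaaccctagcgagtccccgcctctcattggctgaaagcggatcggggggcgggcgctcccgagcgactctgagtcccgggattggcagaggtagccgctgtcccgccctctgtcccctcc

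Genes of glucose metabolism changed less evenly. Of 17 gluconeogenic genes 9 were called higher and 1 lower (median 0.48). The higher count fell to 4 without CD fast replicate 2 and to 5 without CD fed replicate 1. Pck1, the enzyme that commits oxaloacetate to glucose synthesis, was at 2700, 3690, 2390 and 4750 CPM and at 3370, 7110, 5320 and 6910 CPM. The groups overlapped, and the call (log2 fold change 0.75, SE 0.25, adjusted p = 0.0416) was lost in 10 of 25 other fits, for example without CD fed replicate 3 (adjusted p = 0.113). G6pc, which releases free glucose, was at 315, 609, 817 and 971 CPM and 271, 904, 365 and 607 CPM with no difference beyond the spread (log2 fold change -0.34, SE 0.37, adjusted p = 0.544). Glycerol kinase Gk, which lets glycerol from fat enter the pathway, was at 109, 80, 92.5 and 71.7 CPM and at 264, 249, 228 and 261 CPM, with each fasted liver above every fed one (log2 fold change 1.51, SE 0.14, adjusted p = 5.78e-06). Slc2a2, the glucose transporter of hepatocytes, was the member that fell (log2 fold change -0.70, SE 0.13, adjusted p = 0.00113). Ppargc1a, a co-activator that drives this program, was at 12, 15.7, 6.3 and 8.57 CPM and 10.2, 48.5, 14.2 and 27.8 CPM, with 1 fasted liver far above the rest (log2 fold change 1.24, SE 0.39, adjusted p = 0.0287). Without that library, CD fast replicate 2, the log2 fold change was 0.71 and the adjusted p 0.141.

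Among genes of sugar use more were lower than higher. Of these, 8 of 19 genes of glycolysis and glucose entry were called lower and 2 higher (median -0.29). Pklr, given above, was among those lower. Tpi1, which serves both directions of the pathway, rose by 0.44 (adjusted p = 0.00399). In glycogen metabolism 5 of 18 genes were lower and 3 higher, with 1 higher without CD fed replicate 1, 2, 3 or 4. Pygl, the phosphorylase that breaks glycogen down, was at 585, 738, 718 and 727 CPM and at 261, 188, 267 and 255 CPM (log2 fold change -1.51, SE 0.13, adjusted p = 4.27e-06). Gys2, which builds it, went from 212 ± 33.6 to 485 ± 176 CPM (log2 fold change 1.19, SE 0.26, adjusted p = 0.00365). The enzyme of breakdown was thus lower and that of synthesis higher in the fasted livers.

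Of 14 genes at the gate of pyruvate into mitochondria 2 were higher and 3 lower (median -0.01), and the other nine were not called. Mpc1, a subunit of the mitochondrial pyruvate carrier, rose from 138 ± 11.7 to 205 ± 18.6 CPM (log2 fold change 0.57, SE 0.10, adjusted p = 0.000701). Pdhb, a subunit of pyruvate dehydrogenase, fell from 137 ± 17.6 to 83.3 ± 4.15 CPM (log2 fold change -0.72, SE 0.09, adjusted p = 4.47e-05). In the TCA cycle 9 of 18 genes were higher and 3 lower (median 0.25). The lower count was 1 without CD fast replicate 1 or 2 or CD fed replicate 2 or 3. Suclg1, a subunit of succinyl-CoA ligase, rose from 198 ± 10.7 to 282 ± 15.8 CPM (log2 fold change 0.51, SE 0.07, adjusted p = 0.00019) and citrate synthase, Cs, fell from 151 ± 13.8 to 107 ± 12 CPM (log2 fold change -0.50, SE 0.10, adjusted p = 0.00193). Of the respiratory chain, 5 of 37 subunits of complex I were higher and 1 lower (16.2% called, against 25.2% of all genes). Of complexes III and IV 6 of 22 were higher and 0 lower (27.3% called). The higher count for complex I was 2 without CD fast replicate 2 or CD fed replicate 1 and 3 without CD fed replicate 3 or 4. For complexes III and IV it was 3 without CD fast replicate 1 or 2 or CD fed replicate 1 or 4, and 1 subunit of these was lower without CD fast replicate 2. The call of the complex I subunit that was lower was lost without CD fast replicate 1. Among mitochondrial carriers of the Slc25 family 13 of 41 were higher and 3 lower. The higher count was 7 without CD fast replicate 2 or CD fed replicate 2 and 8 without CD fast replicate 4 or CD fed replicate 3 or 4.

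Called genes of amino acid metabolism went in both directions. Of 35 genes of amino acid catabolism 7 were higher and 4 lower (31.4% called, against 25.2% of all genes, median 0.10). Of 15 of the urea cycle and ammonia handling 4 were higher and 1 lower (33.3% called), or 2 lower without CD fast replicate 3 or 4. Oat, which channels ornithine into glutamate, was at 543, 944, 782 and 747 CPM and at 2640, 2680, 2060 and 2200 CPM, a rise in every fasted liver (log2 fold change 1.67, SE 0.22, adjusted p = 8.81e-05). In the urea cycle itself Otc fell from 442 ± 25.2 to 271 ± 58.6 CPM (log2 fold change -0.71, SE 0.18, adjusted p = 0.01). Sdsl, a serine dehydratase, rose by 1.16 (adjusted p = 0.00129). Haao, of tryptophan breakdown, fell by 1.11 on the log2 scale (adjusted p = 0.00014). Tat, the tyrosine aminotransferase long used as a mark of glucocorticoid action, was at 1480, 1820, 945 and 1750 CPM and 1370, 3500, 1260 and 3750 CPM, which overlapped (log2 fold change 0.72, SE 0.39, adjusted p = 0.189). Methionine metabolism was divided, with 7 of 19 genes higher and 5 lower. Mat1a, which makes the methyl donor S-adenosylmethionine, was at 2310, 3410, 3020 and 3200 CPM in CD fed and 8380, 13500, 8320 and 11100 CPM in CD fast livers, without overlap (log2 fold change 1.79, SE 0.20, adjusted p = 2.48e-05). Gamt, which spends that donor on creatine, fell from 127 ± 29.6 to 58.3 ± 11.9 CPM (log2 fold change -1.13, SE 0.19, adjusted p = 0.000828).

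A part of the secretory pathway was lower after the fast. Of 26 genes of ER chaperones and folding 13 were called lower and 0 higher (median -0.54). This count was 9 without CD fed replicate 3, the fewest in any fit that left out 1 CD library. Sec61b, a subunit of the channel through which secreted proteins enter the ER, was at 47.1, 47.7, 48.6 and 49.4 CPM in CD fed and 18.6, 17.7, 22.8 and 20.7 CPM in CD fast livers, with little spread in either group (log2 fold change -1.27, SE 0.11, adjusted p = 4.28e-06). Pdia6, a disulfide isomerase, fell from 361 ± 42.4 to 154 ± 51 CPM (log2 fold change -1.23, SE 0.22, adjusted p = 0.000912), and Canx, the lectin chaperone calnexin, from 378 ± 25.2 to 270 ± 57.8 CPM (log2 fold change -0.49, SE 0.14, adjusted p = 0.0201). Hspa5 (BiP), the most abundant chaperone of the ER, was at 1380, 1220, 1160 and 656 CPM and 1030, 494, 1020 and 1150 CPM, and its groups overlapped (log2 fold change -0.26, SE 0.26, adjusted p = 0.492). No list of sensors and regulators of this compartment was counted. Of single genes, Eif2ak3 (PERK) fell from 27.1 ± 7.61 to 15 ± 0.86 CPM (log2 fold change -0.85, SE 0.17, adjusted p = 0.00227). Creb3l2, an ER-anchored factor of secretory cells, fell from 48.3 ± 10.2 to 20.8 ± 4.13 CPM (log2 fold change -1.22, SE 0.18, adjusted p = 0.000259). Bhlha15 (Mist1), a factor of secretory cells, was at 1.28, 1.08, 0.479 and 0.429 CPM and fell to 0.0707, 0.0512, 0.0984 and 0.0435 CPM, where libraries held 2 to 5 counts (log2 fold change -3.55, SE 0.53, adjusted p = 0.000266). At such counts its fold is uncertain. Creb3l3, another ER-bound factor, and Creb3 went the other way, with log2 fold changes of 0.79 (adjusted p = 0.000603) and 0.45 (adjusted p = 0.000484). Of 20 coat subunits of transport vesicles 2 were lower and 2 higher (20% called, against 25.2% of all genes), and 4 were lower without CD fast replicate 2 or CD fed replicate 4. The paralogs Copz1 and Copz2 moved apart, by -0.47 (adjusted p = 4.47e-05) and 0.76 (adjusted p = 0.000199).

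Some promoters of this group hold a sequence feature that the list did not use. The ER stress element, bound by NF-Y and ATF6, is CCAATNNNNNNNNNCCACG; it contains the NF-Y box CCAAT. It was present on either strand in 9 of the 20 ER chaperone genes with a promoter in the RefSeq table (45.0%). It was in 20 of 11040 tested genes with a promoter (0.181%), 7 of 1295 called lower (0.541%) and 1 of 1564 called higher (0.0639%). Of these 9 chaperone genes 5 were called lower and the other four, Hspa5 among them, were not called. The promoters of Pdia6 and Canx, the called members with the smallest p among those that hold it, were chosen for printing after their values were seen. They lie at chr12:17266339-17266638, plus strand, and chr11:50325624-50325923, minus strand, of GRCm38.p6, and the element is in capitals.
Pdia6: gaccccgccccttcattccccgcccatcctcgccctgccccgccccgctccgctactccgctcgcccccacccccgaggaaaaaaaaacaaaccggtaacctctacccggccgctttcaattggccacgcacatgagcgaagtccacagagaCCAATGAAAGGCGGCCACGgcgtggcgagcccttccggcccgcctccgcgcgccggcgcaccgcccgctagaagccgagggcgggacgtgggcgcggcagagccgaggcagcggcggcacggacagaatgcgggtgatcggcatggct
Canx: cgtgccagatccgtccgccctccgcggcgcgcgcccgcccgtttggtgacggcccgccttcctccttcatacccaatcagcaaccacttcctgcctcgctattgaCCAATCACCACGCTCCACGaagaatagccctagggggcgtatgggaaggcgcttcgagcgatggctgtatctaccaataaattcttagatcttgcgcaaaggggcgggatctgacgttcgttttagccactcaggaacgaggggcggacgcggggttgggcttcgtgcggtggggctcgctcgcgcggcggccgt

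Other complexes and machines of protein and RNA turnover differed in how often they were called. Of 38 proteasome subunits 16 were called higher and 1 lower (median 0.22). Psmd4, a ubiquitin receptor of the proteasome, rose from 95.5 ± 2.59 to 151 ± 26.8 CPM (log2 fold change 0.66, SE 0.11, adjusted p = 0.000803). Psmb10, a subunit of the immunoproteasome, fell by 0.39 on the log2 scale (adjusted p = 0.0223; 0.0504 to 0.0623 without CD fast replicate 1, CD fed replicate 1 or CD fed replicate 2). Cytosolic ribosomal proteins had 1 of 80 members higher and 2 lower (3.75% called). Their log2 fold changes ranged from -0.33 (Rpl35a) to 0.37 (Rps27). The higher count was 3 without CD fast replicate 1 and 2 without CD fed replicate 2, and the lower count was 0 without CD fast replicate 2 and 1 without CD fed replicate 1. The core spliceosome had 1 of 32 higher (Sf3b2, 0.22, adjusted p = 0.019) and 1 lower (Snrpd3, -0.47, adjusted p = 0.00637), or 6.25% called, against 25.2% of all genes. The call of Sf3b2 was lost without CD fast replicate 2 (adjusted p = 0.0553) or CD fed replicate 3 (0.0583). In this list 2 were higher without CD fed replicate 2, and 2 lower without CD fast replicate 1 or 2. Of 30 SR proteins and hnRNPs, which choose splice sites, 4 were higher and 1 lower, or 2 lower without CD fast replicate 1 or 3 or CD fed replicate 3. Their leading gene Hnrnpd was at 24.8, 25.1, 25.1 and 23.8 CPM and at 37.7, 39.1, 37.9 and 35.4 CPM, with almost no spread within a group (log2 fold change 0.60, SE 0.06, adjusted p = 1.95e-05). Cytosolic aminoacyl-tRNA synthetases, which load amino acids for translation, had 8 of 20 members lower and 0 higher (median -0.13). Cars, the cysteine enzyme, fell from 39.4 ± 8.12 to 14.8 ± 2.06 CPM (log2 fold change -1.41, SE 0.16, adjusted p = 2.69e-05). Of 18 chaperones of the heat shock response, cytosolic except the mitochondrial Hspd1 and Hspe1, 5 were higher and 0 lower (median 0.29). The higher count was 3 without CD fast replicate 4 or CD fed replicate 1, 2 or 3, and 1 member was lower without CD fast replicate 1. The mitochondrial chaperonin Hspd1 was among the 5 and rose by 0.34 (adjusted p = 0.00961).

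Among detoxifying enzymes more were lower than higher. Among 21 glutathione S-transferases, which attach glutathione to reactive compounds, 12 were called lower and 2 higher (median -0.80). Gstm6 was at 97.5, 127, 109 and 100 CPM and at 33.9, 22.3, 38.3 and 29.6 CPM (log2 fold change -1.80, SE 0.21, adjusted p = 3.16e-05). Gstt2 went the other way, from 49.2 ± 9.43 to 124 ± 23 CPM (log2 fold change 1.33, SE 0.18, adjusted p = 0.00013). Members of this family are alike in sequence and can share reads. Of 23 target genes of NRF2, the factor of the antioxidant response, 10 were lower and 1 higher (median -0.34), with 2 higher without CD fed replicate 2. Of those 10, Gsta1, Gsta2, Gsta4, Gstm1 and Gstm3 are glutathione S-transferases, and Pgd and G6pdx also belong to the NADPH list. The riser was Srxn1, which repairs oxidized peroxiredoxins (log2 fold change 1.17, SE 0.16, adjusted p = 0.000112). The NRF2 gene Nfe2l2 fell by 0.43 on the log2 scale (adjusted p = 0.00993). Of 38 genes of drug metabolism 13 were lower and 4 higher, with 2 higher without CD fast replicate 4 or CD fed replicate 2. Of 68 cytochromes P450 14 were lower and 11 higher. Cyp2c55, which drug-sensing receptors induce, fell from 6.29 ± 1.95 to 0.512 ± 0.134 CPM (log2 fold change -3.61, SE 0.41, adjusted p = 2.88e-05), and Cyp4f14, an omega-hydroxylase like Cyp4a10, from 297 ± 23.5 to 71.3 ± 20.9 CPM (log2 fold change -2.06, SE 0.23, adjusted p = 2.82e-05). Papss1, which makes the sulfate donor for sulfation, was at 16.6, 18, 18.3 and 18.1 CPM and at 6.91, 7.27, 7.66 and 7.86 CPM and varied little in either group (log2 fold change -1.25, SE 0.10, adjusted p = 1.47e-06). In bile formation the main exporter of bile salts, Abcb11, fell from 978 ± 64.6 to 302 ± 96.2 CPM (log2 fold change -1.70, SE 0.19, adjusted p = 2.52e-05). Abcb4, which exports phospholipid into bile, rose from 314 ± 14.8 to 633 ± 64.6 CPM (log2 fold change 1.01, SE 0.12, adjusted p = 4.95e-05).

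Of 35 cell cycle genes 17 were called lower, 1 was higher and 17 were not called (median -0.74), with 2 higher without CD fast replicate 1 or CD fed replicate 3. With a filter at a mean of 50 counts, 9 were called lower. That filter can remove members from the test, so lost calls and removed members are not told apart here. Rrm2, the subunit of ribonucleotide reductase that limits DNA synthesis, was at 6.94, 9.53, 8.72 and 10.7 CPM and at 1.93, 2.61, 3.35 and 2.74 CPM (log2 fold change -1.75, SE 0.16, adjusted p = 5.78e-06). The kinase Cdk4 was the member that rose (log2 fold change 0.58, SE 0.11, adjusted p = 0.00145). Markers of some other cell types of the liver were lower too, and in bulk samples fewer cells of a type and less RNA per cell cannot be told apart. Sinusoidal endothelial markers had 7 of 12 members lower and 0 higher, with a summed level of 483 to 555 CPM in CD fed and 347 to 434 CPM in CD fast livers. Of these genes Cdh5, their adherens junction cadherin, fell from 32.5 ± 2.04 to 20.3 ± 2.5 CPM (log2 fold change -0.68, SE 0.10, adjusted p = 0.000246). Kupffer cell and macrophage markers had 5 of 13 lower and 0 higher, with sums of 456 to 864 and 316 to 500 CPM and C1qa as the leading gene (log2 fold change -0.70, SE 0.19, adjusted p = 0.0137). Stellate cell and fibroblast markers had 4 of 13 lower and 0 higher, with sums of 290 to 388 and 178 to 282 CPM, led by Ngfr (log2 fold change -1.02, SE 0.23, adjusted p = 0.00486). Without CD fed replicate 1 both counts were 1. The macrophage count was 2 without CD fast replicate 1 or 3 and 3 without CD fast replicate 4 or CD fed replicate 2 or 4. The stellate cell count was 2 without CD fast replicate 2 or 4 or CD fed replicate 2. No marker of these 3 lists was at the floor. Of 10 tested lymphocyte markers 1 was lower, and of 3 tested neutrophil markers 0 were called. Cholangiocyte markers had 1 of 9 tested members lower and 0 higher, at a median of 0.08 and with sums of 54.5 to 57.4 CPM in CD fed and 56.6 to 87.0 CPM in CD fast livers. Their higher count was 1 and their lower count 2 without CD fast replicate 1. Erythroid markers had 1 of 7 lower and 0 higher, at a median of 0.20 and with sums of 307 to 404 and 200 to 406 CPM. The summed level of 12 pericentral hepatocyte genes was 6430 to 10100 CPM in CD fed and 13400 to 15900 CPM in CD fast livers, with Oat and Cyp2e1 called higher and 2 genes lower (median log2 fold change -0.01). Most of the difference in this sum came from Cyp2e1 (5750 ± 1140 to 9650 ± 1330 CPM) and Oat, described above. The sum of 12 periportal genes overlapped, at 8770 to 11700 CPM and 8690 to 15200 CPM, with 2 called higher and 1 lower. The higher count of the periportal genes was 0 without CD fast replicate 2 or 4 or CD fed replicate 2 or 3 and 1 without any other CD library except CD fast replicate 1. The call of Cyp2e1 (log2 fold change 0.75, SE 0.25, adjusted p = 0.0387) was lost without any 1 of the 8 CD libraries, with adjusted p from 0.052 to 0.111. The part that these cells take in the falls of cell cycle genes and other genes was not tested. Of 31 collagens 3 were lower and 0 higher (9.68% called). Of 10 pancreas markers only Cela1 and Cela2a were tested, and both were lower, although 1 was lower without any single CD library other than CD fed replicate 3. The 10 summed to 14.4 to 23.5 CPM in CD fed and 6.19 to 12.3 CPM in CD fast livers, almost all of it Cela1 (18.2 ± 3.78 to 8.17 ± 2.46 CPM). The digestive enzymes Cpa1, Cpb1, Cela3b, Try4 and Pnlip were at or under 3 counts in every CD library.

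**Figure D3:**
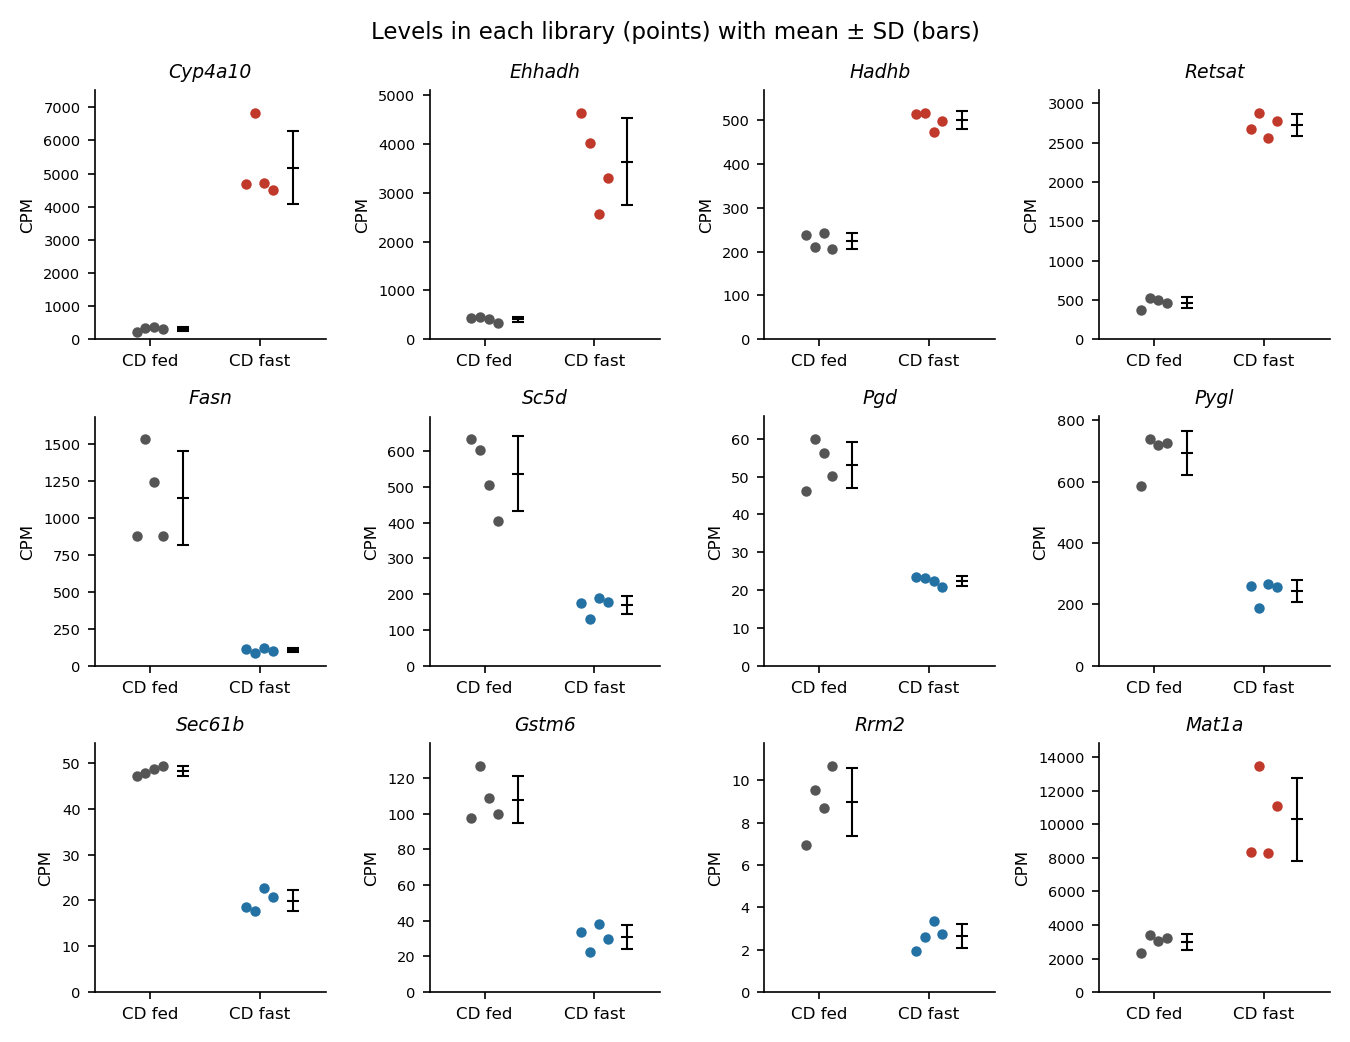
Level in CPM (y axis, from 0) of 12 genes in each of the 4 CD fed and 4 CD fast libraries, as points, with the mean and SD of each group beside them. The groups do not overlap in any of the 12 panels; Fasn spans a wide range among fed livers and Pgd a narrow one among fasted livers.

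Signalling and turnover lists added a few changes. Glucagon and cAMP signalling had 7 of 18 members higher and 2 lower. The lower count was 0 without CD fed replicate 2 and 1 without CD fast replicate 1 or 3 or CD fed replicate 3. Adcy6, an adenylyl cyclase that makes cAMP, rose from 46.7 ± 4.16 to 88 ± 5.33 CPM (log2 fold change 0.91, SE 0.09, adjusted p = 1.57e-05). Sik3, a kinase that cAMP signalling restrains, fell by 0.34 on the log2 scale (adjusted p = 0.0153, and 0.0531 without CD fed replicate 2). Insulin signalling had 2 of 22 members higher and 2 lower (18.2% called), with 1 lower without CD fed replicate 1. Pik3r2, a regulatory subunit of PI3-kinase, rose (0.45, adjusted p = 0.0014) and Grb10, an inhibitor of the insulin receptor, fell (-0.76, adjusted p = 0.00462). AMPK and sirtuins had 1 of 16 higher (6.25% called), the upstream kinase Stk11 (0.28, adjusted p = 0.0131), or 2 higher without CD fast replicate 3 or 4. The list of mTORC1 and nutrient sensing had 3 of 25 higher and 4 lower (28% called, against 25.2% of all genes, median -0.02). Mtor itself rose (0.45, adjusted p = 0.00534), and Sesn3, a sestrin that restrains it, fell (-0.76, adjusted p = 0.00113). Autophagy had 7 of 30 genes higher and 4 lower, 4 higher in the fit of the CD libraries alone. The receptor Optn rose (0.75, adjusted p = 9.11e-05) while Atg14, which starts the membrane, fell (-0.49, adjusted p = 0.000507). Of 25 lysosomal genes 7 were higher and 0 lower (28% called, and 1 lower without CD fast replicate 4). Their leading gene Psap, the precursor of saposins, rose from 453 ± 21 to 721 ± 80.1 CPM (log2 fold change 0.67, SE 0.09, adjusted p = 0.00013).

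Plasma proteins, a main product of hepatocytes, showed both directions. Of 32 genes of complement and coagulation 10 were lower and 2 higher (median -0.23). The higher count was 0 without CD fast replicate 2 or CD fed replicate 3 or 4 and 1 without CD fast replicate 4 or CD fed replicate 1 or 2. Coagulation factor F11 fell from 74.5 ± 18 to 31.7 ± 4.74 CPM (log2 fold change -1.24, SE 0.20, adjusted p = 0.000428). Complement C3 was at 7580, 8030, 6710 and 6420 CPM and 8570, 14400, 8950 and 9240 CPM, without overlap but with 1 fasted liver far above the rest. Its rise (log2 fold change 0.52, SE 0.17, adjusted p = 0.0321) was lost in 6 of 25 other fits, and without CD fast replicate 2 the log2 fold change was 0.31 and the adjusted p 0.11. Of 25 acute phase proteins 9 were higher and 5 lower, with 3 lower without CD fast replicate 1 or 2 or CD fed replicate 3 or 4. Lbp, which binds bacterial lipopolysaccharide, rose from 78.8 ± 13.1 to 156 ± 9.69 CPM (log2 fold change 0.99, SE 0.12, adjusted p = 3.93e-05), and the fibrinogen chain Fgg fell from 3660 ± 670 to 2190 ± 377 CPM (log2 fold change -0.74, SE 0.15, adjusted p = 0.00248). Igf1, the growth factor that liver secretes under growth hormone, was at 476, 453, 557 and 374 CPM and 390, 491, 489 and 557 CPM, with overlap (log2 fold change 0.05, SE 0.15, adjusted p = 0.835). Stat5b, the factor through which growth hormone acts, fell by 0.67 on the log2 scale (adjusted p = 0.0016). Of 16 STAT5 targets of male liver, 4 were lower and 0 higher (25% called, near the 25.2% of all genes, median -0.21).

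Transcripts of regulators were examined as a class. Among 673 tested genes of transcription factor families 68 were higher and 69 lower, 20.4% called against 25.2% of all genes. Of 19 liver-enriched factors 1 was called, the homeobox gene Cux2, which was at 0.401, 0.371, 0.221 and 0.447 CPM and 0.354, 6.7, 2.4 and 9.81 CPM with overlapping groups (3.73, adjusted p = 0.00177). In this list 3 were higher without CD fed replicate 4, and 1 was lower without CD fast replicate 1 or 3. Hnf4a, which holds hepatocyte identity, was at 778, 886, 816 and 822 CPM and 865, 860, 913 and 705 CPM, which overlapped (log2 fold change 0.02, SE 0.10, adjusted p = 0.921). The transcripts of Foxo1 (log2 fold change 0.21, SE 0.19, adjusted p = 0.423), of the bile acid receptor Nr1h4 (log2 fold change -0.06, SE 0.12, adjusted p = 0.764) and of the glucocorticoid receptor Nr3c1 (log2 fold change -0.29, SE 0.11, adjusted p = 0.0739) did not pass. Nr3c1 passed in 3 of 25 other fits, among them that without CD fast replicate 3 (adjusted p = 0.0309). Creb3l3 (CREBH), an ER-bound factor that works with PPARα in the fasted liver, was at 351, 339, 352 and 404 CPM and at 588, 735, 559 and 626 CPM, without overlap (log2 fold change 0.79, SE 0.13, adjusted p = 0.000603). Of 27 factors and co-factors of lipid and glucose metabolism 8 were lower and 3 higher, with 1 higher without CD fast replicate 2 or CD fed replicate 3. Esrra, a receptor that works with Ppargc1a on mitochondrial genes, rose from 20.4 ± 2.62 to 37.2 ± 10.2 CPM (log2 fold change 0.87, SE 0.16, adjusted p = 0.00117).

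**Figure D4:**
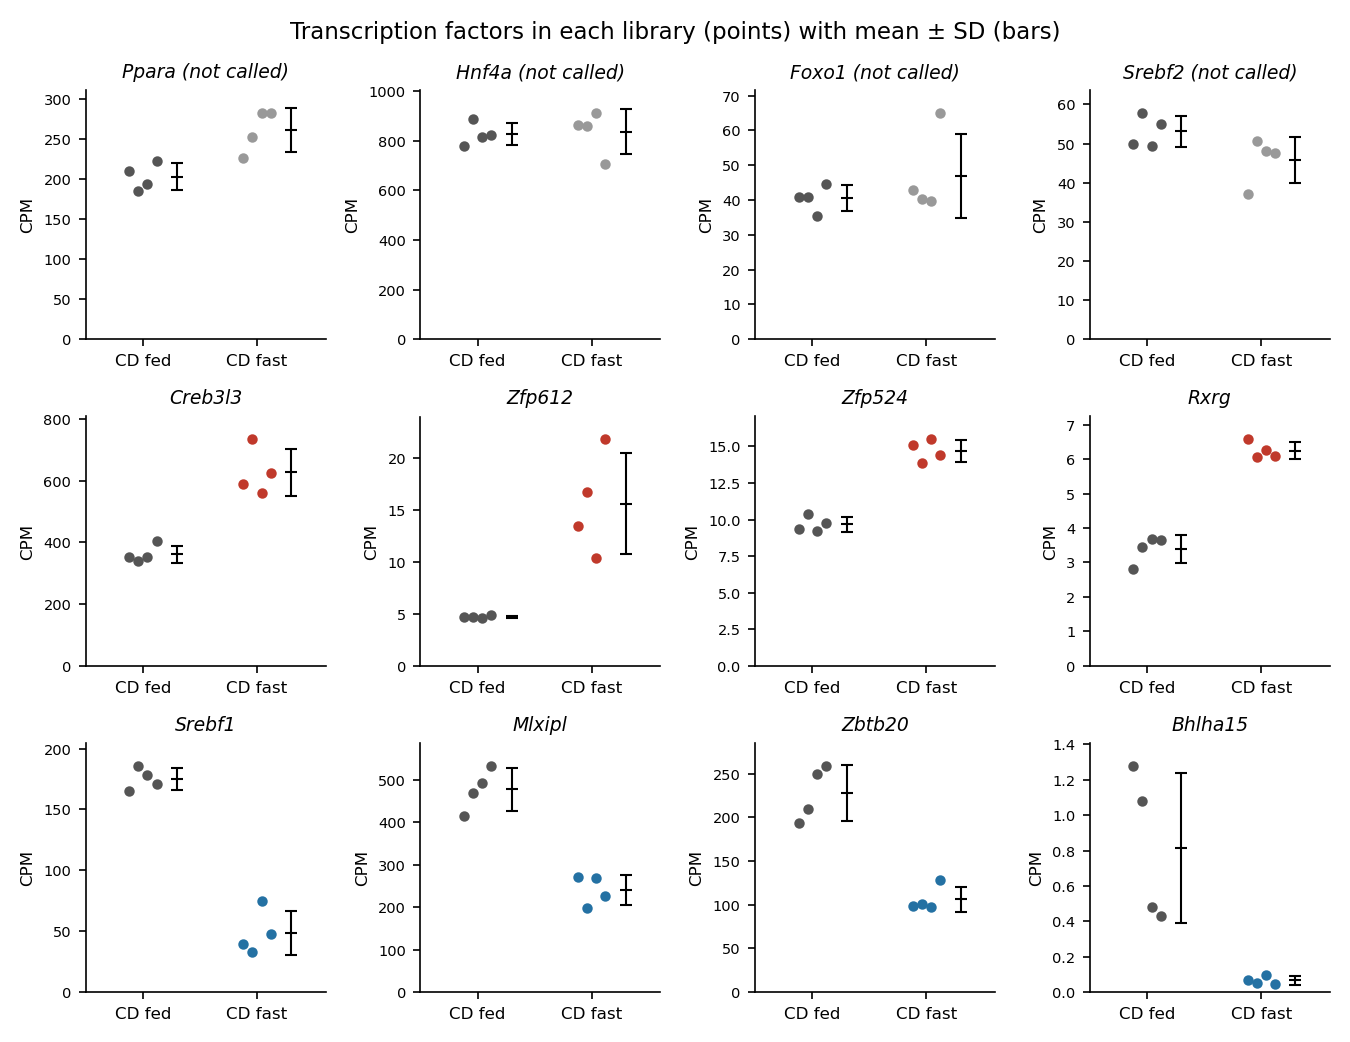
Level in CPM (y axis, from 0) of 12 transcription factor genes in each CD library, as points, with the mean and SD of each group. Ppara, Hnf4a, Foxo1 and Srebf2 were not called; the points of the other 8 do not overlap between CD fed and CD fast.

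Zinc finger genes named Zfp, most of unknown function, made up 343 of the 673 tested factors. Of these 40 were higher and 18 lower (16.9% called, against 25.2% of all genes), with 11 lower without CD fast replicate 2. Zfp612 was at 4.68, 4.64, 4.57 and 4.88 CPM in CD fed and at 13.4, 16.7, 10.4 and 21.8 CPM in CD fast livers, and the fed values were almost equal (log2 fold change 1.73, SE 0.19, adjusted p = 2.61e-05). By the rule for naming factors, 10 rose with the smallest p: besides Zfp612, Creb3l3 and Creb3 (0.45), they included Zfp524 (0.61), Zfp629 (0.66), Zfp617 (0.52), Zfp512b (0.59), Zfp672 (0.78) and Rxrg. Rxrg, a retinoid X receptor that pairs with PPARα and other nuclear receptors, was at 2.81, 3.45, 3.69 and 3.64 CPM and at 6.58, 6.06, 6.26 and 6.09 CPM (log2 fold change 0.88, SE 0.12, adjusted p = 0.000103).

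Among the 10 that fell were Srebf1, Mlxipl, Creb3l2 and Bhlha15. Zbtb20, a repressor needed for liver function, was at 193, 209, 250 and 259 CPM and at 98.9, 101, 97.6 and 128 CPM (log2 fold change -1.1, SE 0.13, adjusted p = 3.83e-05). The other five were Irf2 (-0.77), Zfp280b (-0.83), Klf10 (-1.66), which sugar induces, and the testicular orphan receptors Nr2c1 (-0.49) and Nr2c2 (-0.50), with adjusted p between 0.000468 and 0.00148. By family, bHLH factors had 10 of 48 lower and 2 higher (25% called, against 25.2% of all genes). Forkhead factors had 6 of 20 lower and 0 higher (30% called), with 1 higher without CD fast replicate 3. Nuclear receptors had 6 of 39 higher and 4 lower (25.6% called), and bZIP factors 5 of 49 higher and 5 lower (20.4% called). The higher count of bZIP factors was 9 without CD fast replicate 1, and their lower count was 2 without CD fast replicate 1 and 3 without CD fed replicate 2 or 3. The higher count of bHLH factors was 1 without CD fast replicate 2, 3 or 4 or CD fed replicate 1, 2 or 3. The circadian clock had 2 of 22 members lower and 0 higher: Bhlhe40 (log2 fold change -1.35, SE 0.28, adjusted p = 0.00314) and Arntl (BMAL1), which was at 24.2, 11.6, 7.04 and 11.7 CPM and 11.4, 4.35, 3.96 and 2.5 CPM. The Arntl groups overlapped and the call (log2 fold change -1.30, SE 0.42, adjusted p = 0.033) was lost without CD fed replicate 1 (adjusted p = 0.137), CD fast replicate 2 (0.0875), CD fast replicate 3 (0.0805) or CD fast replicate 4 (0.0864). Of the clock list 6 members were higher without CD fast replicate 1 and 1 without CD fed replicate 2. The lower count was 1 without CD fast replicate 3 or 4 or CD fed replicate 1. Nr1d1 (REV-ERBα), which represses it, did not pass (log2 fold change -0.62, SE 0.27, adjusted p = 0.102).

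**Figure D5:**
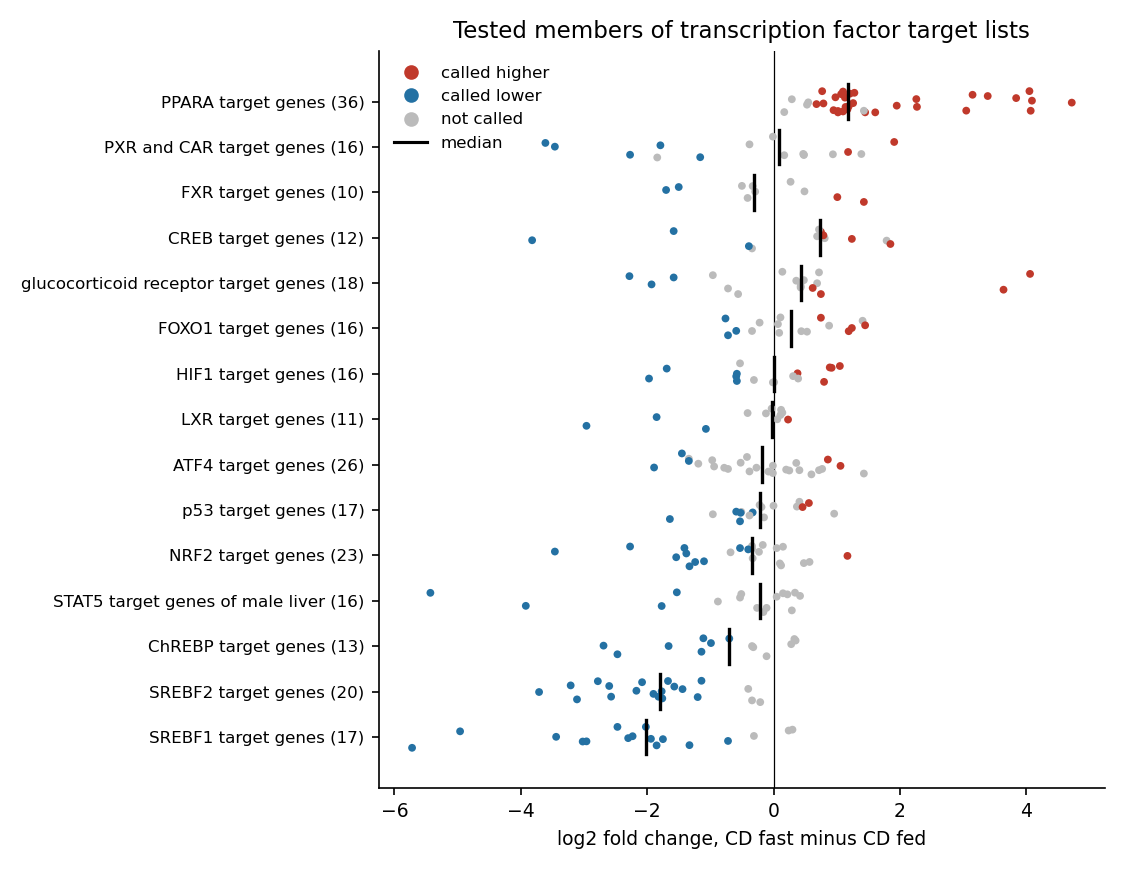
Log2 fold change (CD fast minus CD fed, x axis) of every tested member of 15 lists of transcription factor targets (rows, with the number of members), coloured by call, with the median as a black bar. Targets of PPARα lie to the right of 0 and those of SREBP1c, SREBP2 and ChREBP mostly to the left; the other lists hold calls on both sides or few calls.

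Target lists of other fasting regulators were divided. FOXO1 targets had 4 of 16 members higher and 3 lower, and CREB targets 4 of 12 higher and 3 lower. Among glucocorticoid receptor targets 4 of 18 were higher and 3 lower. The higher count of FOXO1 targets was 1 without CD fed replicate 3 and 2 without CD fast replicate 2, 3 or 4 or CD fed replicate 2 or 4. That of CREB targets was 1 without CD fast replicate 4 and 2 without CD fast replicate 2. Their lower count was 1 without CD fast replicate 1 or 3. The higher count of glucocorticoid receptor targets was 2 without CD fast replicate 4 or CD fed replicate 3. ATF4 targets, the amino acid stress response, had 2 of 26 higher and 3 lower (19.2% called, against 25.2% of all genes, median -0.17). Gpt2, an alanine aminotransferase, rose (log2 fold change 0.86, SE 0.17, adjusted p = 0.00191), and Mthfd2, of mitochondrial one-carbon metabolism, fell (log2 fold change -1.89, SE 0.40, adjusted p = 0.00328). So did Pycr1, of proline synthesis, at a low level of 14 to 20 counts in CD fed and 3 to 7 in CD fast libraries (log2 fold change -1.34, SE 0.37, adjusted p = 0.0167). This call was lost without CD fast replicate 2 (adjusted p = 0.0515). Its promoter (chr11:120643699-120643998, minus strand, GRCm38.p6) is printed because, of the called ATF4 targets whose promoter holds the C/EBP-ATF element TGATGNAAT, in capitals, Pycr1 had the smallest p. A printed promoter was chosen in the same way for the targets of SREBP2 and ChREBP.
Pycr1: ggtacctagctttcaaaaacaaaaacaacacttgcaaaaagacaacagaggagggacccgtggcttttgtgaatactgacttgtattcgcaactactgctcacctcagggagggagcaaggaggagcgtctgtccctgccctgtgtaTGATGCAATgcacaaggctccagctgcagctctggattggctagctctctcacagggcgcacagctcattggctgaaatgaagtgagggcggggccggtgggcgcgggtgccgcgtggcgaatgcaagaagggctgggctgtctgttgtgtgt

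Motif letters were then counted in the promoters of all genes. A RefSeq promoter was available for 1564 of the 2066 genes called higher, 1295 of the 1731 called lower and 11040 of the 15075 tested. The PPAR element (direct repeat 1, AGGNCANAGGNCA) was in 0.192% of the promoters of higher genes, 0.0772% of lower and 0.371% of all. The sterol regulatory element was in 1.53%, 2.47% and 1.49%. In the same order, the E-box CACGTG was in 12.5%, 10.4% and 11.3%, and the cAMP element TGACGTCA in 3.64%, 2.93% and 3.40%. The core TGACG of the cAMP element was in 36.0%, 30% and 33.9%, and the FOXO element TGTTTAC in 3.71%, 3.47% and 3.32%. The D-box TTANGTAA was in 1.79%, 2.47% and 1.94% and the antioxidant element TGACNNNGC in 16.4%, 17.2% and 16.7%. The glucocorticoid element ACANNNTGT was in 4.73%, 5.10% and 5.57% and the NRF1 element GCGCANGCGC in 10.9%, 9.27% and 10.7%. The NF-Y box CCAAT was in 42.1%, 45.9% and 42.6% and the C/EBP-ATF element in 0.575%, 0.541% and 0.652%. The carbohydrate element was in 0.448%, 0.927% and 0.734% and the RORE AANTAGGTCA in 0.128%, 0.386% and 0.190%. The heat shock element GAANNTTCNNGAA was in 0.959%, 0.386% and 0.553%. These are shares of genes with 1 or more matches on either strand. The core TGACG lies within the cAMP element and can overlap the antioxidant element, and E-boxes can lie within the carbohydrate element. No test was made. A match is not a binding site, and the lack of one says only that these letters are not in the window. Within the lists, heat shock chaperones held the heat shock element in 4 of 15 promoters and NRF2 targets the antioxidant element in 8 of 18. The PPAR element was in 1 of 29 promoters of PPARα targets and the sterol element in 0 of 14 of SREBP1c targets and 1 of 12 of SREBP2 targets. The carbohydrate element was in 1 of 9 of ChREBP targets, the cAMP element in 1 of 10 of CREB targets and the FOXO element in 1 of 13 of FOXO1 targets. The C/EBP-ATF element was in 3 of 23 of ATF4 targets and the glucocorticoid element in 3 of 15 of glucocorticoid receptor targets.

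Most tested genes lay outside the lists. Of 12216 tested genes in no list or family, 1649 were higher and 1335 lower (24.4% called), against 220 and 241 of 1223 genes in any written list (37.7% called). The 12 protein-coding genes outside the written lists with the smallest p in each direction had no overlap between CD groups. Retsat, which saturates retinol and is a known PPARα target, was at 376, 527, 502 and 454 CPM and at 2670, 2880, 2560 and 2780 CPM, with the fasted values close together (log2 fold change 2.55, SE 0.27, adjusted p = 2.05e-05). Ech1, an auxiliary enzyme of fatty acid oxidation, rose from 294 ± 27.3 to 639 ± 39.4 CPM (log2 fold change 1.12, SE 0.12, adjusted p = 1.62e-05). Cmip, an adaptor protein, had the smallest p of the risers and moved from 31.2, 30.9, 31.2 and 28.8 CPM to 61.2, 59.7, 53.1 and 59 CPM (log2 fold change 0.93, SE 0.07, adjusted p = 1.47e-06). Others were the bicarbonate cotransporter Slc4a4 (1.34), the nicotinic receptor subunit Chrna2 (2.27), the mitochondrial ATPase Vwa8 (1.08), Prune1 (1.22), Tmem120a (1.54), Vsig10l (2.30), Atp5s (1.16) and the laminin chain Lamb3 (4.41). Lamb3 overlaps Hsd11b1 and G0s2, whose reads it may share.

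Among the 12 with the smallest p that fell, Paox, which oxidizes acetylated polyamines, was at 31.6, 36.8, 37.7 and 35.9 CPM and at 9.57, 13, 11.8 and 13.7 CPM, without overlap (log2 fold change -1.56, SE 0.12, adjusted p = 1.88e-06). Echdc1, a proofreading enzyme of fatty acid synthesis, fell from 90.8 ± 5.22 to 36 ± 4.22 CPM (log2 fold change -1.33, SE 0.11, adjusted p = 3.04e-06). Cyb5r3, the reductase that supplies electrons for desaturation and sterol synthesis, fell from 599 ± 82.2 to 212 ± 17.5 CPM (log2 fold change -1.50, SE 0.13, adjusted p = 5.78e-06). Nans, which makes sialic acid, fell from 15.6 ± 1.39 to 7.17 ± 0.322 CPM (log2 fold change -1.12, SE 0.10, adjusted p = 4.28e-06). Slc25a44, a carrier of branched-chain amino acids, fell by 0.93 on the log2 scale (adjusted p = 4.11e-06). The lipid transporter Abca2 fell by 1.13 (adjusted p = 8.88e-06), Keg1 by 2.51 and Fam198a by 2.46. Also among them were Rdh11 and Papss1, described above, and the nicotinic receptor subunit Chrna4, which reached 0 to 5 counts per library. Pnpla5 and Serpina9 were at or under the floor in every CD fast library. Pnpla5, a lipase family member regulated by SREBPs, had 81 to 104 counts in each CD fed library and 0 to 1 in each CD fast library. Its CD fed mean of 1.67 CPM was 21.8-fold above 0.0767 CPM, the highest floor of 3 counts in a CD fast library. Serpina9 had 33 to 123 and 2 to 3 counts, and its CD fed mean of 1.54 CPM was 20.1-fold above that floor. These folds hold for the CD fed means, and the lowest CD fed libraries were nearer to the floor.

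Non-coding classes were counted separately. Of 351 tested genes annotated as antisense 71 were higher and 13 lower (23.9% called, against 25.2% of all genes, median 0.24). Of 304 lincRNAs 42 were higher and 22 lower (21.1% called, median 0.13). Bidirectional promoter lncRNAs had 13 of 48 higher and 4 lower (35.4% called, median 0.33). Processed pseudogenes had 9 of 227 higher and 15 lower (10.6% called). Protein-coding genes had 1847 of 13315 higher and 1620 lower (26.0% called). The study's methods name a first-strand library type for the alignment, but the strand setting of the counting step is not given in the sources used here. Whether reads of an antisense gene and of its partner were kept apart is therefore not known.

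The response differed from that of HFD mice for 390 genes (2.59%) in a test of the diet by fasting interaction. This test compares the change between feeding states across diets and shares no library between its arms. The count was 1066 with DESeq2. It was 147 without CD fed replicate 2, 246 without CD fed replicate 1 and 233 without CD fast replicate 2. It was 162 and 239 without HFD fast replicates 3 and 4, and 241 without HFD fed replicate 1 or 2, and 168 without HFD fed replicate 3. Among the lists, this test was passed by 12 of 36 PPARα targets, 7 of 23 genes of mitochondrial oxidation and 4 of 12 thioesterases. It was also passed by 6 of 13 lipogenic genes and 8 of 20 SREBP2 targets, against 2.59% of all genes. The median log2 fold changes of these lists were 1.18, 0.95, 1.0, -2.23 and -1.80 in CD and 0.56, 0.37, 0.26, -0.98 and -0.12 in HFD livers. List members were chosen with earlier results of these data known, and this test uses the same CD libraries. Higher shares and smaller medians in HFD livers are therefore partly built in, and no excess is read from them. Fasn fell by 3.44 in CD and by 1.47 in HFD livers on the log2 scale (edgeR's interaction test, adjusted p = 0.00287). Cyp4a10 rose by 4.09 and 1.48 (edgeR, adjusted p = 0.00838). Zbtb20, Hnrnpd and Creb3l2 had called changes in CD and values near 0 in HFD livers. The log2 fold changes of Zbtb20 were -1.1 in CD and -0.05 in HFD (edgeR, adjusted p = 0.0114 for the difference). Those of Hnrnpd were 0.60 and 0.04 (edgeR, adjusted p = 0.00838), and those of Creb3l2 -1.22 and 0.17 (edgeR, adjusted p = 0.0152). Pck1 had opposite signs (0.75 and -0.86, 0.0296). In the lists of ketone body synthesis and of ER chaperones 0 of 7 and 1 of 26 genes passed this test, which does not show that they acted alike in the 2 diets.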

How the data were processed

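RNA-seq of polyA-enriched liver RNA was analysed in 16 libraries, of which the 8 CD libraries are the subject. The authors deposited 1 table of raw counts per gene (whole reads, not normalized) for 46078 annotated genes. The submitters' processing notes name CASAVA (1.8.4), TopHat2 (2.0.11), featureCounts and the build GRCm38 (mm10), and the study's methods add a first-strand library type for TopHat2 and an iGenomes annotation. The annotation release and the strand setting of featureCounts are not given in the sources used here. Reads shared by alike genes or counted in overlapping genes cannot be assigned, and 63 of the 159 named genes overlap another annotated gene, for example Lamb3, Pklr, Srebf1, Zbtb20, Hnrnpd, Pygl and Oat.

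Genes with too few counts for their group were removed (filterByExpr), which left 15075. TMM normalization (trimmed mean of M-values) set the effective library sizes. edgeR (4.0.16, R 4.3.3) fitted all 16 libraries with 1 coefficient per group, and its quasi-likelihood F test gave log2 fold changes, standard errors and Benjamini-Hochberg adjusted p-values over all genes tested, with a threshold of 0.05. The model had 12 residual degrees of freedom and a common biological coefficient of variation of 19.2%. CPM values are TMM-scaled counts, and fold changes include the small prior count of edgeR. DESeq2 (1.42.0) and limma-voom (limma 3.58.1) were alternatives. The scripts were tested on simulated data for this comparison. There edgeR recovered 32.8% of changes of 0.58, 76.8% of changes of 1 and 93.8% of changes of 2 on the log2 scale. The simulation changed only 67, 69 and 64 genes of these sizes among 14962 tested. With so few changed genes the adjusted p threshold is harder to pass than in the data. These shares are therefore not the recovery in the data. Chi-square values per gene for replicate pairs were 83.5 to 194 in CD groups, well above sampling noise, so that no library was counted as a copy.

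Named genes were, for each written list and family, the called member with the smallest p in each direction; 18 genes whatever their test gave; the 10 transcription factors and the 12 protein-coding genes outside the lists with the smallest p in each direction, the latter with a mean of at least 100 counts; and genes at 3 counts or fewer in one CD group and 30 or more in the other. Hmgcs1, Pycr1, Pdia6, Canx, Hspa5, Pdk4, Plin2, Elovl6, Nr1d1, Arntl and Tat were added after their values were seen. Some genes that the rule names are not reported here. The members and lists were chosen with earlier results of these data known. Gene names came from the RefSeq table (45229 matched, 849 kept their identifiers), and promoters from RefSeq on GRCm38.p6. Motifs were searched as exact letters on both strands.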

Additional observations from a re-analysis of the deposited data

Results flagged for a closer look

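Within a CD group of 4, a library was looked at again where its gap to the nearest of the others, divided by the range of the group, was above Dixon's 95% critical value for 4 samples. This was so for 19 of 318 groups of 4 values of the named genes, and chance gives about 1 in 20. CD fast replicate 1 stood apart for Adcy6 (80.1 CPM, nearest other 90 CPM), C1qa (22.6 CPM, nearest other 31.1 CPM) and Mpc1 (232 CPM, nearest other 198 CPM). CD fast replicate 2 stood apart for C3 (14400 CPM, nearest other 9240 CPM), Cyp4a10 (6840 CPM, nearest other 4710 CPM), Elovl6 (73 CPM, nearest other 67.2 CPM), Mrpl17 (82.6 CPM, nearest other 64.5 CPM) and Pygl (188 CPM, nearest other 255 CPM). CD fast replicate 3 stood apart for Pklr (97.8 CPM, nearest other 75.9 CPM). CD fast replicate 4 stood apart for Foxo1 (65.1 CPM, nearest other 42.9 CPM) and Zbtb20 (128 CPM, nearest other 101 CPM). CD fed replicate 1 stood apart for Cdk4 (28.8 CPM, nearest other 24.6 CPM), Cyp2e1 (4040 CPM, nearest other 6260 CPM) and Pygl (585 CPM, nearest other 718 CPM). CD fed replicate 2 stood apart for Copz2 (14.3 CPM, nearest other 12.5 CPM). CD fed replicate 3 stood apart for Pik3r2 (19.1 CPM, nearest other 21.2 CPM) and Zfp672 (15.4 CPM, nearest other 11.8 CPM). CD fed replicate 4 stood apart for Cmip (28.8 CPM, nearest other 30.9 CPM) and Slc27a2 (1540 CPM, nearest other 1400 CPM).

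The change differed between diets, in edgeR's test of the interaction, for 50 of the 159 named genes, against 2.59% of all tested genes. Many of the named genes were chosen by a small p in CD, and this test uses the same CD libraries. A higher share among them, with smaller changes in HFD livers, is therefore partly built in, and no excess is read from it. For each gene the difference of the log2 fold changes (HFD minus CD) is given first, followed by the change in CD and the change in HFD livers. Of the genes higher in CD and with a smaller positive value in HFD livers, the values were Cyp4a10 -2.61 (4.09 and 1.48), Gpat3 -2.59 (3.01 and 0.42), Ehhadh -2.24 (3.15 and 0.92) and Acot2 -2.09 (3.39 and 1.31). In that set the values were also Vsig10l -1.85 (2.30 and 0.45), Rab30 -1.67 (2.25 and 0.58), Retsat -1.53 (2.55 and 1.02) and Chrna2 -1.39 (2.27 and 0.88). Further such genes had Zfp612 -1.38 (1.73 and 0.35), Mat1a -1.13 (1.79 and 0.66), Hsd17b11 -1.05 (1.48 and 0.43) and Lbp -0.96 (0.99 and 0.03). With smaller differences there were Ech1 -0.87 (1.12 and 0.26), Abcb4 -0.82 (1.01 and 0.19), Prune1 -0.71 (1.22 and 0.52) and Hadhb -0.70 (1.16 and 0.46). To these belonged Slc27a2 -0.65 (1.07 and 0.41), Chkb -0.64 (0.89 and 0.26), Hnrnpd -0.57 (0.60 and 0.04) and Zfp524 -0.52 (0.61 and 0.08). Last among these were Zfp629 -0.50 (0.66 and 0.16), Zfp617 -0.49 (0.52 and 0.02) and Cmip -0.41 (0.93 and 0.53). Of the genes lower in CD and with a smaller negative value in HFD livers, the values were Copz1 0.32 (-0.47 and -0.15), Nans 0.68 (-1.12 and -0.44), Papss1 0.75 (-1.25 and -0.50) and Echdc1 0.81 (-1.33 and -0.53). Lower in the same way were Pgd 0.98 (-1.24 and -0.26), Zbtb20 1.05 (-1.1 and -0.05), Cars 1.06 (-1.41 and -0.35) and Cyb5r3 1.12 (-1.50 and -0.38). Larger gaps between the diets were seen for Keg1 1.36 (-2.51 and -1.15), Sc5d 1.38 (-1.67 and -0.29), Acly 1.49 (-2.47 and -0.98) and Insig1 1.51 (-2.08 and -0.57). Beyond these lay Pklr 1.65 (-2.69 and -1.03), Rdh11 1.70 (-2.60 and -0.90), Fasn 1.97 (-3.44 and -1.47) and Cyp2c55 3.15 (-3.61 and -0.47). Then came Chrna4 6.12 (-9.35 and -3.23). Values of opposite sign in the 2 diets were found for Pck1 -1.60 (0.75 and -0.86), Sdsl -1.60 (1.16 and -0.44) and Pex11g 0.67 (-0.23 and 0.44). Also of opposite sign, but within 1 standard error of 0 in HFD livers, were the values of Pnpla2 -1.39 (1.19 and -0.20), Esrra -0.92 (0.87 and -0.05), Apobec1 0.71 (-0.64 and 0.07) and Cdh5 0.75 (-0.68 and 0.07). Such values near 0 in HFD livers were also seen for Eif2ak3 1.0 (-0.85 and 0.14), Gamt 1.28 (-1.13 and 0.15) and Creb3l2 1.38 (-1.22 and 0.17). Some HFD values of the same sign as in CD, such as those of Hnrnpd and Lbp, also lay within 1 standard error of 0. Adjusted p-values of these differences ran from 0.00287 to 0.0493. For Chrna4 the CD fast libraries held 0 to 5 counts, so that the size of its difference is uncertain. No cause of these differences was tested.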

How the results depend on the processing

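The comparison of CD fast with CD fed livers was refitted with DESeq2, limma-voom, other scalings, other filters on low counts, the replicate number as a block, the CD libraries alone and each of the 16 libraries left out. Over these 25 fits, 3797 changed genes became 2857 (without CD fast replicate 2) to 4265 (DESeq2). Without 1 library, 2857 to 3958 genes were changed, 1517 to 2134 higher and 1340 to 1824 lower. Counts of higher or lower members per list were compared too, with a move beyond a factor of 1.5 as the limit. With the CD libraries alone 42 of them moved and 196 did not. Moves numbered 28 with total count scaling, 27 with DESeq2, 26 with no filter on low counts and 53 without CD fast replicate 2. A stricter adjusted p of 0.01 left 1859 (1051 higher, 808 lower), and a log2 fold change of at least 1 in size left 878 (450 and 428). The interaction count of 390 was 1066 with DESeq2, 31 at an adjusted p of 0.01, 166 at a log2 difference of at least 1, and 147 to 461 without 1 library. The share of counts in genes called higher rose by 11.7 points, 9.74 to 11.6 without 1 CD library, and that in genes called lower changed by -8.32 points, -8.45 to -7.02. The cause of these shifts was not tested.

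With the replicate number as a block, 3948 genes were changed, 2109 higher and 1839 lower, and 359 passed the interaction. Of the genes named here Fgf21 changed its call, with a log2 fold change of 1.69 and an adjusted p of 0.0369 in edgeR. Same-numbered libraries correlated in their deviations at 0.05, 0.10, 0.11 and 0.10. Every number matched best with itself, a hint from the data and not from the design. The labels give these samples only a shared number, and whether they share more than that is not known.

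Of 146 called genes named here 135 kept their call and direction in each of the 25 fits that tested them. The other 11 lost the call in 1 or more: Arntl, C3, Cyp2e1, Pck1, Pex11g, Ppargc1a, Psmb10, Pycr1, Rpl35a, Sf3b2 and Sik3. A gene that the filter at a mean of 50 counts removed, such as Bhlha15, was not tested in that fit. No direction of a called gene was reversed. In promoter windows of only the 150 bases before the start, the ER stress element was in 7 of 20 ER chaperone promoters and 0.136% of all. Depth limits genes of a few counts, such as Chrna4, Bhlha15 and Pycr1, whose fold sizes are uncertain.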

Other observations

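Lists without a place among the comparisons gave a few further changes. Of 21 genes of apolipoproteins and lipoprotein assembly 2 were called higher and 3 lower, near the share of all genes, with 4 higher without CD fast replicate 1. Apoa4, an apolipoprotein of triglyceride-rich particles, was at 826, 297, 601 and 398 CPM in the CD fed and at 8090, 11000, 1940 and 7300 CPM in the CD fast libraries (log2 fold change 3.74, SE 0.73, adjusted p = 0.00205), with a wide spread in both groups and no overlap. Apobec1, the enzyme that edits the Apob transcript, was at 21.7, 19.5, 19.9 and 19.1 CPM and 12.7, 14.3, 13.7 and 10.8 CPM (log2 fold change -0.64, SE 0.12, adjusted p = 0.0014). Of 22 genes of sphingolipid metabolism 3 were higher and 2 lower (22.7% called, against 25.2% of all genes). The higher count was 1 without CD fed replicate 1, 2 or 4, and the lower count 1 without CD fast replicate 2 or 4 or CD fed replicate 1. Among its ceramide synthases Cers6 was higher (1.17, adjusted p = 0.00938) and Cers2, the main form in liver, was lower (-0.51, adjusted p = 0.0047). Chkb, a choline kinase at the start of phosphatidylcholine synthesis, rose from 48.9 ± 2.25 to 90.8 ± 11.2 CPM (log2 fold change 0.89, SE 0.10, adjusted p = 2.33e-05).

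Single members of otherwise mixed families rose in every fit that was run. Rab30, a small GTPase of the Golgi, was at 7.24, 4.62, 7.56 and 9.54 CPM and 28, 35.6, 32.4 and 41.8 CPM (log2 fold change 2.25, SE 0.25, adjusted p = 2.79e-05), among 48 RAB GTPases of which 8 were called higher and 4 lower (25% called). Their lower count was 1 without CD fast replicate 1 and 2 without CD fast replicate 2 or 4 or CD fed replicate 1 or 2. Pde4d, a phosphodiesterase that degrades cAMP, was at 3.79, 4.08, 3.63 and 2.64 CPM and 6.93, 11.5, 7.5 and 10.7 CPM (log2 fold change 1.37, SE 0.20, adjusted p = 0.000268), and of the 18 members of its family 1 was called higher and 1 lower. The lower call was lost without CD fast replicate 2 or CD fed replicate 1 or 2. The deubiquitinase Usp20 (0.69, adjusted p = 4.91e-05) and Mrpl17, a protein of the mitochondrial ribosome (0.70, adjusted p = 0.00013), rose as well, Mrpl17 with CD fast replicate 2 above the other three fasted livers. Mitochondrial ribosomal proteins as a list had 13 of 77 members higher and 5 lower (23.4% called, median 0.03), with 2 lower without CD fed replicate 3 and 3 lower without CD fast replicate 2 or 4 or CD fed replicate 1. The 245 solute carriers tested had 39 higher and 34 lower (29.8% called, against 25.2% of all genes).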
